A study of Mus musculus with 6 samples.

Results

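The DNA replication and S phase genes described here are 36 genes of the replication machinery and its control, chosen by name, and all 36 were found among the 20938 genes of the expression table. Their RNA was sequenced in RAW264.7, a transformed mouse line of macrophage character from which osteoclasts can be grown. The labels call the cells macrophage and give bone marrow as their source. All 6 samples come from cells induced to become osteoclasts, of which 3 received the solvent DMSO alone and 3 were treated with 8 µM of the plant isoflavone neobavaisoflavone (NBIF). The sources used here do not give the inducing agent or the time of harvest, uninduced cells were not analysed here, and all samples come from 1 cell line. The labels do not say whether replicates were separate cultures, so the spread between them may be technical.

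Cells copy their genome once per division. In G1 the origin recognition complex, CDC6 and CDT1 load the ring of MCM2 to MCM7 onto DNA, and in S phase CDC45 and the GINS complex turn that ring into an active helicase. Primase and DNA polymerases then copy both strands, held on DNA by the PCNA clamp, while ribonucleotide reductase, thymidylate synthase and thymidine kinase supply nucleotides. Most of these genes are transcribed under E2F transcription factors when cells leave G1. Osteoclast precursors divide before they fuse, and mature osteoclasts are known as cells that no longer divide.

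Values are FPKM, a count of fragments corrected for transcript length and for the total sequenced. The gene lengths used are uncertain, so levels set side by side between genes are only approximate. Each sample had 13073 to 13415 genes above 0. The number of reads is unknown, and steps between low values put relative depth at 0.888 to 1.09 times that of DMSO 1. Of 10 macrophage markers, Mertk was at or near 0 and Spi1 did not pass the test, while the other 8 were lower with NBIF, and the 10 summed to between 2734 and 2962 FPKM in DMSO and between 1817 and 1856 FPKM in NBIF. Of 10 osteoclast markers, Acp5, Ctsk, Mmp9 and Ocstamp were lower, Nfatc1 was higher, 4 did not pass and Calcr was below 1 FPKM, and the 10 summed to 7604 to 8199 FPKM in DMSO and 6023 to 6828 FPKM in NBIF. The 12 markers of lymphoid, stromal, epithelial, endothelial and erythroid cells summed to at most 0.630 FPKM in any sample, with Ncr1 and Krt8 listed at 0 throughout. The part of these marker shifts in the results below was not tested. In bulk RNA, fewer cells in S phase and less RNA per such cell cannot be told apart.

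Among the replication genes, 4 fell and 1 rose with NBIF, a share close to that of all tested genes. Of the 36, 32 averaged 1 FPKM or more across the samples and were tested, and 5 changed at a limma adjusted p under 0.05 (two-sided, adjusted over 9936 genes). Uhrf1, Mcm5, Gins3 and Cdt1 fell, Fen1 rose and 27 did not pass. The 5 make up 15.6% of the tested members, beside 18.6% of all tested genes, 8.08% of which were lower and 10.5% higher. The median log2 change of the 32 was 0.01, beside 0.04 for all tested genes, with 17 above 0 and 15 below. The members' median was -0.03 with median-ratio scaling, where 41.3% of all calls were higher in place of 56.6%, and -0.04 with quantile normalization. The groups did not overlap for 10 of the 32, 4 with NBIF above and 6 with NBIF below. Of all tested genes, 39.0% had groups apart, 24.6% with NBIF above and 14.3% with NBIF below.

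**Figure D1:**
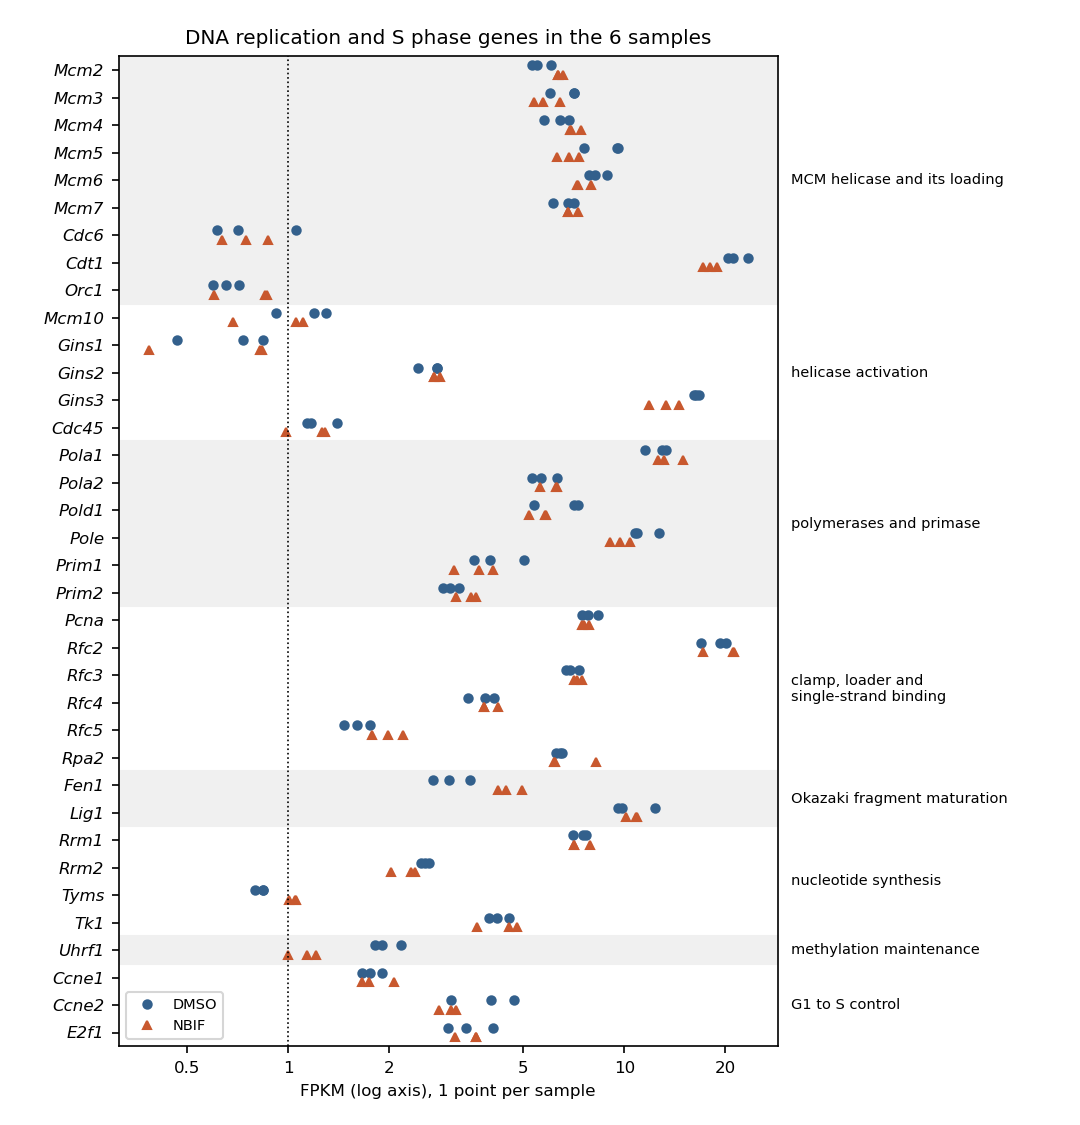
FPKM of each of the 36 genes in the 3 DMSO samples (circles) and 3 NBIF samples (triangles), on a log axis and ordered by role, with a dotted line at 1 FPKM. The groups overlap for most genes, while Uhrf1, Mcm5, Gins3 and Cdt1 lie lower and Fen1 higher with NBIF. Without a call, the groups are also apart for Mcm2, Mcm4, Rfc5 and Tyms (NBIF above) and for Pole and Rrm2 (NBIF below).

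The interval of each change sets what these samples could show. Among the 27 that did not pass, log2 changes ran from -0.28 to 0.19 and the smallest adjusted p was 0.104. Their 95% intervals reached from -0.55, for Ccne2, to 0.39, for Rfc5, which as folds of FPKM + 1 are 0.681 and 1.31. For 26 of the 27 the whole interval lay within 0.5 of 0 on the scale of log2(FPKM + 1). The added 1 shrinks the changes of genes with low FPKM, so for these the intervals do not bound the fold of FPKM itself. Mcm10, for example, had a log2 change of -0.14 as reported and -0.25 with 0.1 added in place of 1. Smaller changes in either direction are not excluded by these intervals, and a gene that missed the threshold is not thereby shown to be equal.

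**Figure D2:**
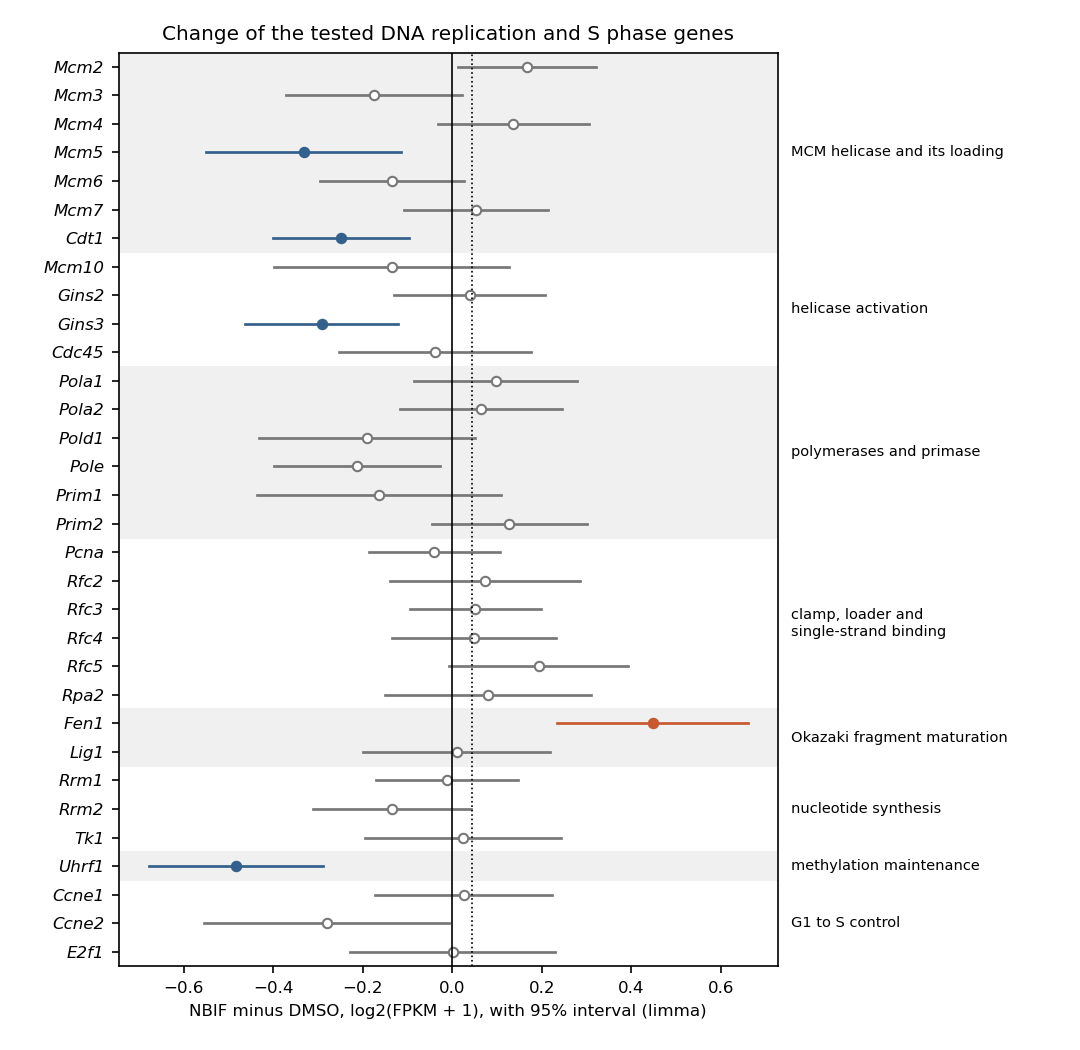
Log2 change (NBIF minus DMSO, on log2(FPKM + 1)) of the 32 tested genes with its 95% interval from limma, filled where the adjusted p is under 0.05; the dotted line marks the median of all tested genes, 0.04. Only Uhrf1, Mcm5, Gins3 and Cdt1 are filled on the lower side and Fen1 on the higher side.

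Among the genes that load the helicase, Cdt1, which brings the MCM ring to origins, had 21.1, 20.4 and 23.3 FPKM in DMSO and 18.9, 18.0 and 17.1 FPKM in NBIF. All 3 NBIF samples lay below all 3 DMSO samples. The gene (chromosome 8, 122568015 to 122573554, plus strand, GRCm38) fell by 0.25 ± 0.07 on the log2 scale (SE; limma adjusted p = 0.0339). It no longer passed on leaving out DMSO 1 (adjusted p = 0.0753), DMSO 3 (0.0623), NBIF 1 (0.0579), NBIF 2 (0.0897) or NBIF 3 (0.118), with no filter on low values (0.0617) or with the replicate number as a block (0.0583).

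The ATPase gene Cdc6 and the origin recognition subunit gene Orc1 were low and below the filter. Cdc6 had 1.05, 0.615 and 0.710 FPKM in DMSO and 0.748, 0.872 and 0.635 FPKM in NBIF. Orc1 had 0.595, 0.715 and 0.651 FPKM in DMSO and 0.852, 0.863 and 0.602 FPKM in NBIF. The groups overlapped for both, and with no filter on low values their adjusted p-values were 0.892 and 0.462.

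Of the 6 subunit genes of the MCM ring, Mcm5 fell and the other 5 did not pass; a difference between subunits was not tested. Mcm5 had 9.52, 7.60 and 9.56 FPKM in DMSO and 7.35, 6.85 and 6.31 FPKM in NBIF, with DMSO 2 close to the highest NBIF sample. It (chromosome 8, 75109569 to 75128439, plus strand) fell by 0.33 ± 0.10 on the log2 scale (SE; limma adjusted p = 0.0438). Mcm2 had 5.48, 5.32 and 6.04 FPKM in DMSO and 6.56, 6.34 and 6.36 FPKM in NBIF, with the groups apart in the other direction (log2 change of 0.17, adjusted p = 0.123). Mcm5 no longer passed on leaving out DMSO 1 (adjusted p = 0.133), DMSO 3 (0.102), NBIF 1 (0.0671), NBIF 2 (0.101) or NBIF 3 (0.134), when samples were rescaled to the same sum (0.05003) and with no filter on low values (0.101).

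The remaining subunit genes did not pass. Mcm4 had 6.35 ± 0.53 FPKM in DMSO and 7.07 ± 0.30 in NBIF (mean ± SD, n = 3 per group; log2 change of 0.14, limma adjusted p = 0.237). Mcm3 had 6.73 ± 0.61 and 5.85 ± 0.53 FPKM (-0.17, adjusted p = 0.197), and Mcm6 had 8.31 ± 0.53 and 7.48 ± 0.41 FPKM (-0.13, adjusted p = 0.219). Mcm7, which hosts microRNA genes, had 6.66 ± 0.48 and 6.95 ± 0.27 FPKM (0.05, adjusted p = 0.636). The summed FPKM of the 6 subunit genes was 44.2, 38.7 and 44.7 in DMSO and 41.8, 40.7 and 39.3 in NBIF, so the sum overlapped between groups. The ratio of Mcm5 to Mcm2, a pair picked after their values were seen, was 1.74, 1.43 and 1.58 in DMSO and 1.12, 1.08 and 0.992 in NBIF.

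**Figure D3:**
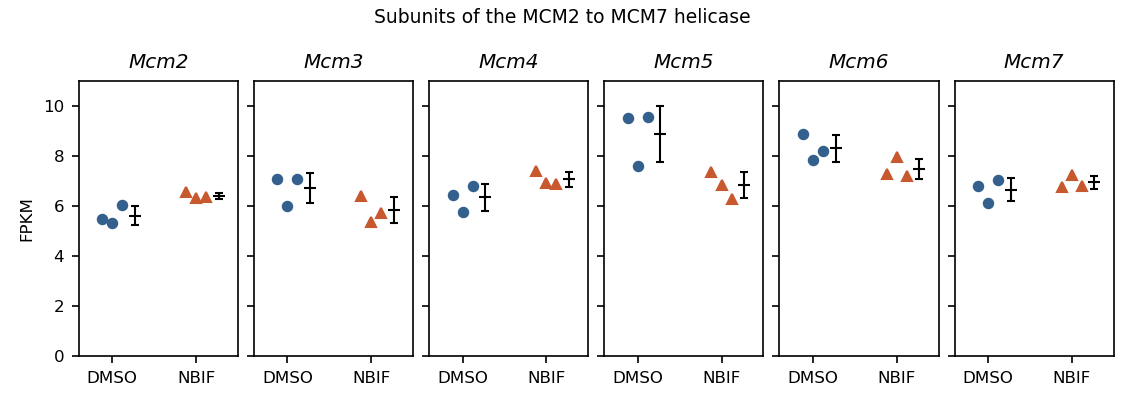
FPKM of the 6 subunit genes of the MCM ring in each sample (circles DMSO, triangles NBIF), with the mean and SD of each group (n = 3) beside the points. Mcm5 is lower with NBIF, Mcm2 and Mcm4 have the NBIF samples above the DMSO samples without passing the test, and the other groups overlap.

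Of the genes that activate the helicase, Gins3, a subunit of the GINS complex, had 16.3, 16.1 and 16.7 FPKM in DMSO and 13.3, 14.5 and 11.8 FPKM in NBIF. The DMSO samples were close to each other and all above the NBIF samples. Gins3 (chromosome 8, 95633453 to 95645060, plus strand) fell by 0.29 ± 0.07 on the log2 scale (SE; limma adjusted p = 0.0288). It no longer passed on leaving out DMSO 1 (adjusted p = 0.0760), DMSO 2 (0.0562), DMSO 3 (0.0601), NBIF 1 (0.0777) or NBIF 3 (0.0851), or with no filter on low values (0.0615).

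Its partner subunits were at lower levels. Gins4, which is not a member and was named after its value was seen, had 10.1 ± 0.61 FPKM in DMSO and 11.6 ± 0.78 in NBIF. All its NBIF samples lay above its DMSO samples, without passing (log2 change of 0.18, limma adjusted p = 0.109). Gins2 had 2.65 ± 0.19 FPKM in DMSO and 2.75 ± 0.07 in NBIF (n = 3 per group, limma adjusted p = 0.756), and 67.3% of its annotated exon sequence overlaps the opposite-strand gene Gse1. Gins1, below the filter, had 0.680 ± 0.193 and 0.680 ± 0.257 FPKM. Cdc45, which joins the MCM ring and GINS in the active helicase, had 1.23 ± 0.14 and 1.18 ± 0.17 FPKM (adjusted p = 0.810). The initiation factor gene Mcm10 had 1.13 ± 0.19 and 0.947 ± 0.228 FPKM (adjusted p = 0.447).

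None of the 6 polymerase and primase genes passed. Pole, the catalytic subunit of the leading-strand polymerase, had 12.7, 10.7 and 10.9 FPKM in DMSO and 10.4, 9.07 and 9.70 FPKM in NBIF. The groups did not overlap, with a log2 change of -0.21 and a limma adjusted p of 0.104. Pold1, the catalytic subunit of the lagging-strand polymerase, had 7.10, 5.39 and 7.26 FPKM in DMSO and 5.81, 5.84 and 5.19 FPKM in NBIF. The low DMSO 2 sample made its groups overlap (log2 change of -0.19, adjusted p = 0.246), and without DMSO 2 the change was -0.31 (adjusted p = 0.0382). That was the 1 of 16 alternatives in which Pold1 passed, with a limma adjusted p of up to 0.492 in the others.

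The polymerase alpha and primase subunits start each new strand. Pola1 had 12.6 ± 0.92 FPKM in DMSO and 13.5 ± 1.21 in NBIF (n = 3 per group, limma adjusted p = 0.432). Pola2 had 5.75 ± 0.50 and 6.05 ± 0.39 FPKM (adjusted p = 0.613). The primase genes Prim1 and Prim2 had log2 changes of -0.16 and 0.13, and neither passed (adjusted p = 0.375 and 0.280).

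None of the 6 members that form the clamp, part of its loader or the single-strand binding complex passed. Pcna had 7.49, 7.81 and 8.35 FPKM in DMSO and 7.46, 7.87 and 7.57 FPKM in NBIF, a log2 change of -0.04 with a 95% interval from -0.19 to 0.11 (limma adjusted p = 0.701). The loader subunit genes Rfc2, Rfc3, Rfc4 and Rfc5 had log2 changes of 0.07, 0.05, 0.05 and 0.19. Rfc5 was the 1 of them with groups apart, at 1.60, 1.46 and 1.75 FPKM in DMSO and 1.97, 1.77 and 2.19 FPKM in NBIF (adjusted p = 0.163). Rpa2, a subunit of the complex that coats single-stranded DNA, had 6.51, 6.42 and 6.27 FPKM in DMSO and 6.21, 6.18 and 8.24 FPKM in NBIF, where NBIF 3 alone was high (adjusted p = 0.615).

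Fen1, which encodes the nuclease that trims flaps between Okazaki fragments, was the 1 member that rose. It had 3.00, 2.69 and 3.48 FPKM in DMSO and 4.95, 4.20 and 4.43 FPKM in NBIF, with all NBIF samples above all DMSO samples. The mean was 1.48-fold higher, and the log2 change was 0.45 ± 0.09 (SE; limma adjusted p = 0.0128, and 0.0530 without NBIF 1). With a pseudocount of 5 the log2 change was 0.24, with the call kept. Of its annotated exon sequence (chromosome 19, 10199132 to 10204169, minus strand), 78.8% overlaps the antisense gene Gm10143 and 5.37% overlaps Tmem258, which had 10.8 ± 0.52 FPKM in DMSO and 10.8 ± 0.97 in NBIF. No gene is listed under the symbol Gm10143, so its level could not be read. Whether the authors counted by strand is unknown, and reads of Fen1 and of the antisense gene cannot be told apart.

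Lig1, the ligase that seals the fragments after Fen1 has acted, had 9.85, 9.60 and 12.3 FPKM in DMSO and 10.8, 10.9 and 10.1 FPKM in NBIF. The groups overlapped, and the log2 change was 0.01 with a 95% interval from -0.20 to 0.22 (limma adjusted p = 0.957).

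The nucleotide-making enzymes gave no call. Rrm1 and Rrm2, the subunits of ribonucleotide reductase, had log2 changes of -0.01 and -0.13 (limma adjusted p = 0.918 and 0.265). Rrm2 had 2.55, 2.48 and 2.61 FPKM in DMSO and 2.39, 2.31 and 2.02 FPKM in NBIF, without overlap. The thymidine kinase gene Tk1 had 4.22 ± 0.30 and 4.33 ± 0.59 FPKM (adjusted p = 0.886). Tyms, the thymidylate synthase gene, lay below the filter at 0.838, 0.795 and 0.839 FPKM in DMSO and 1.05, 1.04 and 1.01 FPKM in NBIF. All its NBIF samples were higher, and with no filter on low values its log2 change was 0.16 with an adjusted p of 0.0593.

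Uhrf1, which maintains DNA methylation, fell. Its product binds hemimethylated DNA behind the replication fork and recruits the maintenance methyltransferase DNMT1. It had 2.16, 1.81 and 1.89 FPKM in DMSO and 0.998, 1.14 and 1.2 FPKM in NBIF, so that the mean in NBIF was 0.569 of that in DMSO. The highest NBIF sample was well below the lowest DMSO sample. The log2 change of Uhrf1 (chromosome 17, 56303321 to 56323486, plus strand) was -0.48 ± 0.09 (SE; limma adjusted p = 0.00630). The log2 change depended on the pseudocount, at -0.76 for 0.1 and -0.19 for 5, and passed for both. It was larger in size than that of Fen1 as reported, but not with a pseudocount of 5, without DMSO 1 or without DMSO 3. Dnmt1, named here after its value was seen, had 11.1 ± 0.79 FPKM without NBIF and 10.5 ± 0.52 with it (n = 3 per group, limma adjusted p = 0.495).

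The regulators of S phase entry among the members did not pass. E2f1, a transcription factor that drives many of these genes, had 3.37, 2.98 and 4.06 FPKM in DMSO and 3.62, 3.62 and 3.13 FPKM in NBIF. Its log2 change was close to 0, with a 95% interval from -0.23 to 0.23 (limma adjusted p = 0.998). Ccne1, a cyclin that activates CDK2, had 1.77 ± 0.12 and 1.82 ± 0.22 FPKM (adjusted p = 0.868). Ccne2, its paralogue, had 4.00, 4.68 and 3.04 FPKM in DMSO and 2.82, 3.05 and 3.15 FPKM in NBIF, where DMSO 3 fell among the NBIF samples. Its log2 change was -0.28 (adjusted p = 0.141), and -0.41 without DMSO 3 (adjusted p = 0.0208). That was the 1 of 15 alternatives in which Ccne2 passed, with a limma adjusted p of up to 0.338 in the others.

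The control samples differed among themselves in these genes. DMSO 2 was the lowest of the 3 DMSO samples for 22 of the 32 tested members, beside 34.6% of all tested genes. DMSO 3 was the highest for 20 of the 32, beside 37.4% of all tested genes. Without DMSO 2 the median log2 change of the members was -0.05, with Cdt1, Mcm5, Pold1, Uhrf1 and Fen1 called, and without DMSO 3 it was 0.03, with Ccne2, Uhrf1 and Fen1 called. The number of lower members was 1 without DMSO 1, NBIF 1 or NBIF 3 and 2 without NBIF 2, and only Uhrf1 was called in every alternative that tested it.

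**Figure D4:**
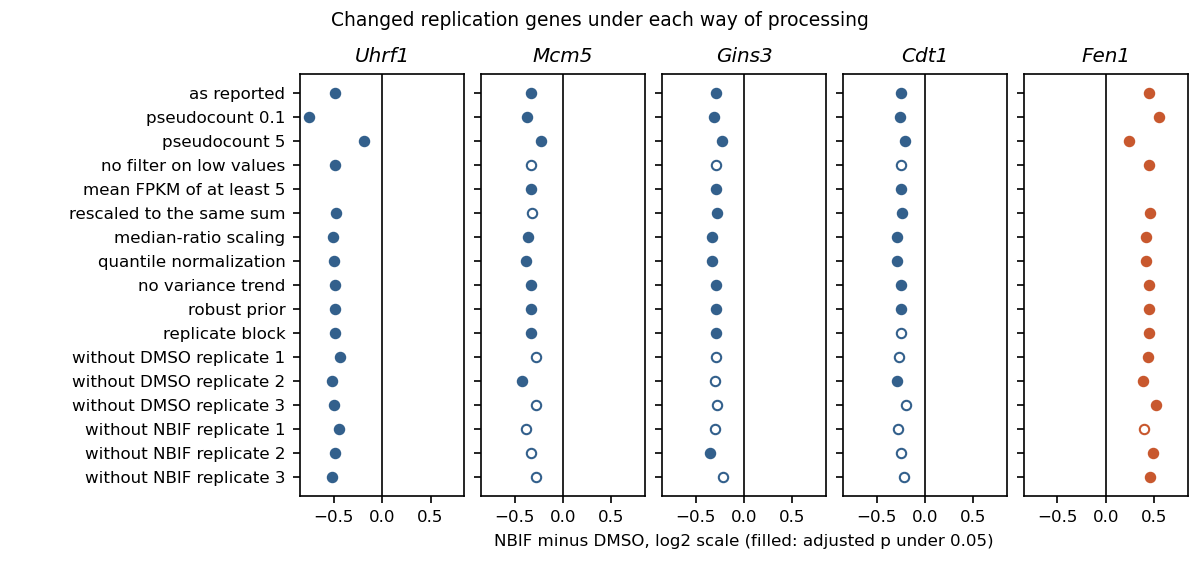
Log2 change (NBIF minus DMSO) of the 5 changed genes as reported and under each alternative, filled where the adjusted p is under 0.05; Uhrf1 and Fen1 have no point at a mean of at least 5 FPKM, where they were not tested. Uhrf1 is filled in all 15 alternatives, Fen1 in 14 of 15, Gins3 in 10 of 16, and Mcm5 and Cdt1 in 9 of 16 each.

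Promoter sequence was available for 29 of the 36 members in RefSeq (GRCm38.p6), as 34 windows from 250 bases before to 50 after a gene start. The E2F core, searched on both strands as TTGGCGC, as TTCCCGC, as TTCGCGC and as TTGCCGC, was found in 22 of the 34 windows, beside 9.57% of all 32851 windows in the table. By gene it was in 19 of 29 members, beside 10.9% of all 27025 genes with a window, tested here or not. Neither expression nor base composition was matched in these comparisons. The 19 include all 4 that fell, the 1 that rose, and 12 of the 21 with a promoter that did not pass the test. The CCAAT box (CCAAT, both strands) was in 19 of the 34 windows, beside 37.4% of all windows, and the CHR element of mitotic genes (TTTGAA, both strands) was in 4, beside 17.9%. A match is a description of letters and was not tested against binding. The windows of the 5 changed genes, and of Mcm6 for its 5 matches without a call, are shown 5′ to 3′ on the gene's strand with E2F core matches in capitals, where overlapping matches run together. Fen1 has a further window without a match, and Uhrf1 a further one with 1 match, which are not shown.
Uhrf1, chr17:56303087-56303386, plus strand: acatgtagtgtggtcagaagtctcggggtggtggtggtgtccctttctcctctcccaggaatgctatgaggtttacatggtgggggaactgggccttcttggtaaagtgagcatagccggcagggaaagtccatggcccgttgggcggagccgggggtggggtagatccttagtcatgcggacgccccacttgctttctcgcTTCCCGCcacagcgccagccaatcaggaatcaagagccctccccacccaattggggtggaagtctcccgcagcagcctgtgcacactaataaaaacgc
Cdt1, chr8:122567765-122568064, plus strand: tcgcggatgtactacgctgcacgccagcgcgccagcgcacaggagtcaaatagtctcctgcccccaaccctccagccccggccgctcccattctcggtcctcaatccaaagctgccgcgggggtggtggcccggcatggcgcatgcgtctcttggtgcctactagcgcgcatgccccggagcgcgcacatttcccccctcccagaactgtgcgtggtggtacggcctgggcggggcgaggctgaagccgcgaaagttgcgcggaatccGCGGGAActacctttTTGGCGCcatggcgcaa
Mcm5, chr8:75109259-75109558, plus strand: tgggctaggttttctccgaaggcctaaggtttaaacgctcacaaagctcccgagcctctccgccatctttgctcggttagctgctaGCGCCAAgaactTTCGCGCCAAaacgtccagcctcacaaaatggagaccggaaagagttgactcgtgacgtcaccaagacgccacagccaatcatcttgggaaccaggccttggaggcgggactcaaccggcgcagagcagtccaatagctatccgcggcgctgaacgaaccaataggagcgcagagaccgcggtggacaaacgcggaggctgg
Gins3, chr8:95633309-95633608, plus strand: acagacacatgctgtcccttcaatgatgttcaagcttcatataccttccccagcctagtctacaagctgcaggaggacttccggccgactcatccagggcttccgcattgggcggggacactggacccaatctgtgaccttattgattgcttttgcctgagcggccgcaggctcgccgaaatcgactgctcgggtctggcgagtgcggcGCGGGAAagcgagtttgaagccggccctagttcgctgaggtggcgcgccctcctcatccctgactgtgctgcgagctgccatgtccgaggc
Fen1, chr19:10203872-10204171, minus strand: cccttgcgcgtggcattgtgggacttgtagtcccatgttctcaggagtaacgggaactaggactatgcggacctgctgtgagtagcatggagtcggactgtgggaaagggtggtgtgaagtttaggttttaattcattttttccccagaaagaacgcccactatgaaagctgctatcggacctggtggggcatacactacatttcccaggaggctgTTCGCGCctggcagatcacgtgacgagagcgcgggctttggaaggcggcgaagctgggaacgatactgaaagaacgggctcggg
Mcm6, chr1:128359656-128359955, minus strand: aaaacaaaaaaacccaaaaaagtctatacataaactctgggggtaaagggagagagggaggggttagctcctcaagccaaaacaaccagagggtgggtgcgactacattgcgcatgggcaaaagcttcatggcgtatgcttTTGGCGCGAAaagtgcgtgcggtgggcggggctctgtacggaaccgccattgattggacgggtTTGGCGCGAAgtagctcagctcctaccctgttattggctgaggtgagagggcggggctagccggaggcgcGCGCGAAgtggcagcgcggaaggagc

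The 300-base windows of the genes that fell and of genes that did not pass both held E2F core letters. Mcm5 held 3 matches and Mcm6 5, and the log2 changes of the pair were -0.33 and -0.13. Overlapping matches were counted separately, so 1 stretch in capitals can hold more than 1 match, as in both of these windows. Cdt1 held 2 matches, and Gins3, Uhrf1 and Fen1 held 1 each in the windows shown, with Fen1 moving opposite to the other 3.

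Other genes of replication and the cell cycle were read from 6 lists. Of 151 tested genes, 12 rose, 5 fell and 134 did not pass, so that 11.3% changed, beside 18.6% of all tested genes, with a median log2 change of 0.06, beside 0.04. The rises of Rfc1, Rnaseh2a, Umps, Ppat, Hus1, Blm and Kif23, 7 of the 17 calls, were lost under both median-ratio scaling and quantile normalization (limma adjusted p of 0.0522 to 0.111), and the calls of Recql4 (0.0609) and Cdkn1a (0.0595) under quantile normalization. Among 37 other replisome and origin genes, 4 rose, 1 fell and 32 did not pass, with a median of 0.08. Gmnn, which encodes the CDT1 inhibitor geminin, went from 6.87, 7.54 and 7.28 FPKM in DMSO to 9.11, 8.80 and 9.54 FPKM in NBIF, a log2 rise of 0.30 (limma adjusted p = 0.0134, and up to 0.0557 when 1 sample was left out, with the call lost for 2 of the 6 samples). The helicase gene Recql4 rose by 0.30 and the ribonuclease subunit gene Rnaseh2a by 0.28, and the nuclease gene Dna2 fell by 0.26. The remaining rise, of the clamp loader gene Rfc1, named after its value was seen, was 0.17 (limma adjusted p = 0.0327), with the call lost for 5 of the 6 samples left out in turn (up to 0.111). The calls of Recql4, Rnaseh2a and Dna2 were lost for 4, 5 and 4 of the 6 samples left out in turn, with adjusted p up to 0.0938, 0.114 and 0.0750.

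Among 31 tested genes of the E2F and RB pathway and of G1 to S control, 3 rose, 1 fell and 27 did not pass, with a median log2 change of 0.08. The share changed was 12.9%, beside 18.6% of all tested genes. Cks1b, a small CDK-binding subunit that helps degrade the inhibitor p27, had 21.8, 20.4 and 23.3 FPKM in DMSO and 36.8, 37.7 and 35.2 FPKM in NBIF. The groups lay far apart, with a log2 rise of 0.72 (limma adjusted p = 0.000196). The cyclin gene Ccnd2 went from 1.26, 1.79 and 1.43 FPKM in DMSO to 3.47, 3.45 and 2.84 FPKM in NBIF, a 2.18-fold rise of the mean (log2 change of 0.77, adjusted p = 0.00180). Both calls held in every alternative that tested them. The E2F partner gene Tfdp2 rose by 0.28, with the call lost for 3 of the 6 samples left out in turn (adjusted p up to 0.0694), and the CDK inhibitor gene Cdkn1a fell by 0.15, with the call lost for 5 (up to 0.143).

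The other regulators looked at whatever their values did not pass or, for E2f7 and E2f8, lay below the filter and were not tested. Ccnd1, the more abundant cyclin D gene, had 49.2 ± 3.64 FPKM in DMSO and 45.5 ± 1.96 in NBIF (n = 3 per group, limma adjusted p = 0.274). Cdk2, Ccna2 and E2f2 had log2 changes of -0.05, -0.11 and 0.07. Rb1, the brake on E2F, had a log2 change of -0.19 (adjusted p = 0.206), Cdkn1b (p27) one of -0.18 (0.296) and Myc one of 0.33 (0.167). The repressor gene E2f8, below the filter, had 0.742, 0.434 and 0.540 FPKM in DMSO and 0.341, 0.426 and 0.391 FPKM in NBIF, without overlap, and E2f7 was at 0.124 FPKM or less in every sample.

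Among 25 tested genes of the replication checkpoint and fork repair, 2 rose and 23 did not pass (median 0.09). The share changed was 8.0%, beside 18.6% of all tested genes. The rises were 0.26 for the checkpoint clamp gene Hus1 and 0.31 for the helicase gene Blm on the log2 scale. The call of Hus1 was lost whichever of the 6 samples was left out (limma adjusted p of 0.0764 to 0.129) and that of Blm for 5 of the 6 (up to 0.127). The checkpoint kinase gene Chek1 had a log2 change of 0.09 (adjusted p = 0.476). Of 20 nucleotide supply genes, 2 rose and 18 did not pass (median 0.06): Umps by 0.20 and Ppat by 0.21, enzymes of pyrimidine and purine synthesis, with the calls lost for 5 and 6 of the 6 samples (adjusted p up to 0.128 and 0.142). None of the 12 tested genes of the list headed chromatin assembly passed by limma, 1 of them having an unadjusted p under 0.05 (median -0.03). The list is wider than its heading. Its genes with the smallest p were H2ax, at 14.8 ± 1.86 and 17.8 ± 1.54 FPKM (limma adjusted p = 0.0982), and the deubiquitinase gene Usp1, at 14.0 ± 1.12 and 14.9 ± 0.52 FPKM (adjusted p = 0.397).

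Mitosis follows replication, and its genes were set beside these. Tests covered 26 of the 38 listed, of which 3 fell and 1 rose, with a median log2 change of 0.01. The share changed was 15.4%, beside 18.6% of all tested genes. Foxm1, a transcription factor of the G2 and M phases, had 6.12, 5.60 and 6.16 FPKM in DMSO and 4.16, 4.46 and 4.29 FPKM in NBIF, a fall of 0.39 on the log2 scale (limma adjusted p = 0.00571). The ubiquitin-conjugating enzyme gene Ube2c fell by 0.64 and the kinetochore gene Cenpf by 0.54. These 3 falls held in every alternative that tested them, while the rise of the kinesin gene Kif23 by 0.31 was lost for 5 of the 6 samples left out in turn (adjusted p up to 0.121). The difference between the mitotic and the replication genes was not tested.

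**Figure D5:**
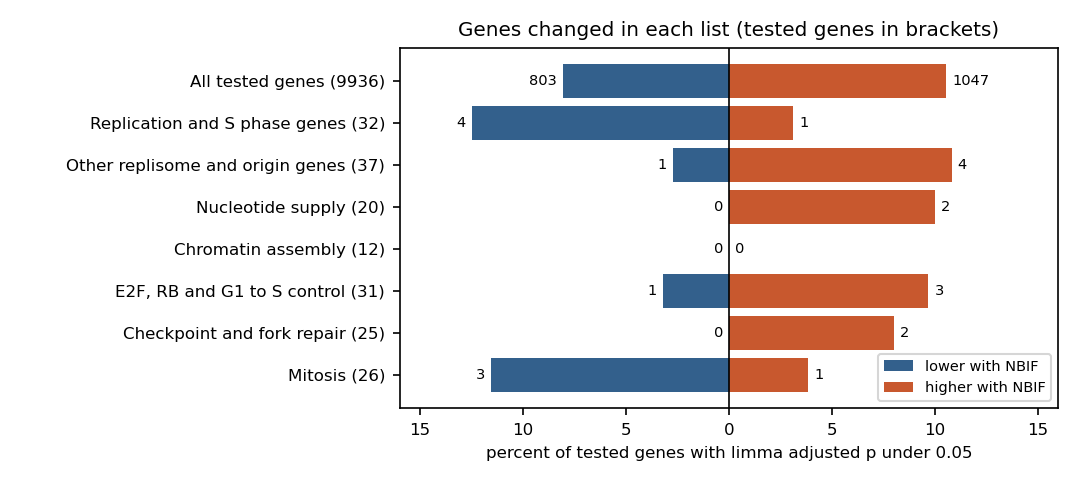
Percent of tested genes that were lower (left) or higher (right) with NBIF at a limma adjusted p under 0.05, for all tested genes, the replication and S phase genes and 6 other lists, with gene counts beside the bars. The replication and S phase genes have 4 lower and 1 higher of 32, beside 803 lower and 1047 higher of 9936.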

How the data were processed

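Total RNA of RAW264.7 cells was isolated with TRIzol, per the labels' protocols. The values, which the authors deposited as FPKM, stand in 1 table with 1 row per gene symbol and 1 column per sample, and no columns were left unmapped. Columns were matched to samples by title, and the groups are DMSO (n = 3) and NBIF (n = 3). Per the submitters' processing notes, which give no roles, DESeq2 1.20.0, featureCounts 1.5.0-p3, HISAT2 2.0.5, CASAVA 1.8 and fastp were used, with the human build GRCh38, while 99.6% of the symbols are mouse gene names or synonyms. The build, the gene lengths and the strand setting behind the values are therefore uncertain.

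FPKM values of a sample summed to 484603 to 494172, and replicates had 0 nonzero values in common. Whole reads were not recovered, so no count model was fitted and no counting interval is given. Those genes averaging 1 FPKM or more entered a linear model of log2(FPKM + 1) on group in limma 3.58.1 (R 4.3.3), with variance moderated along a trend and p-values Benjamini-Hochberg adjusted over 9936 genes at 0.05. The added 1 shrinks the fold change of genes with low FPKM. The procedure was tested on simulated data. Alternatives changed the pseudocount, the filter, the scaling and the variance model, added the replicate number as a block and left out each sample in turn. The 36 members and the other lists were chosen with earlier results of these data known, so their counts are descriptions beside the share of all genes. Named outside the members were up to 4 called genes with the largest changes per list, or the 2 with the smallest p where none passed, and 11 regulators whatever their values. Symbols of 2 listed genes were updated through RefSeq synonyms. Gene coordinates and exon overlaps come from GENCODE M21 (GRCm38), matched by symbol.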

Additional observations from a re-analysis of the deposited data

How the results depend on the processing

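The median log2 change of the members ranged from -0.05 to 0.03 over the 16 alternatives. The number of all genes called was 1006 to 1889 when 1 sample was left out. Members higher numbered 0 at a mean of at least 5 FPKM, where Fen1 was not tested, and 0 to 1 when 1 sample was left out. Members lower numbered 1 with no filter on low values, where 15148 genes were tested, and 1 to 4 when 1 sample was left out. Called genes of the 6 other lists numbered 11 at a mean of at least 5 FPKM, 11 with median-ratio scaling, 10 with quantiles made equal and 7 to 21 when 1 sample was left out. The share of all calls that were higher was 56.6%, but 41.3% after median-ratio scaling and 46.9% after quantile normalization. The cause of these shifts was not tested. Over the 497 values of single members, 443 kept their direction and call, 21 calls were lost, 2 were gained and 31 uncalled values changed sign. Most of the 443 are members without a call that stayed without one. Changing the filter or the variance model, or adding the block, leaves each log2 change as it is, so direction could not change there. The 21 lost calls are all of the 5 called members. Their calls held in 15 of 15 alternatives for Uhrf1, 14 of 15 for Fen1, 10 of 16 for Gins3 and 9 of 16 each for Mcm5 and Cdt1. With the replicate number as a block, 4 members were called, 3 lower and 1 higher, the 5 less Cdt1 (adjusted p = 0.0583), with 1632 of all genes. Deviations of equally numbered samples correlated at 0.08, 0.13 and 0.04, so the numbers were not taken to pair the samples, and numbers 1 and 2 but not 3 correlated best with their own. The number of reads is unknown, so limits set by depth could not be given.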

Other observations

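Of the 4 members that fell, 3 (Mcm5, Gins3 and Cdt1) lie on chromosome 8, where 4 of the 32 tested members lie. Over all 538 tested genes of chromosome 8, 36 (6.69%) were lower with NBIF, beside 8.08% of all tested genes. This placement was noticed after the values were seen, and it was not tested.

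Several members share exon sequence with a gene on the opposite strand besides Fen1 and Gins2. The overlap was 17.4% of the exon sequence of Ccne2 (with Ints8), 15.1% of Rfc2 (with Lat2), 12.7% of Rfc4 (with Eif4a2) and 10.7% of Rfc5 (with Wsb2). Eif4a2 rose from 213 ± 14.9 to 251 ± 8.35 FPKM (limma adjusted p = 0.0224), while Rfc4 had 3.79 ± 0.35 and 3.95 ± 0.23 FPKM. The 2 genes Pcna and Tyms have processed copies named after them in the annotation, so their values are uncertain.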
